A study of Mus musculus with 11 samples.

Results

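Laminin chains are the subunits of the main cell-binding protein of basement membranes. The 9 chain genes described here were taken by name: the alpha chains Lama1, Lama2, Lama3, Lama4 and Lama5, the beta chains Lamb1, Lamb2 and Lamb3, and the gamma chain Lamc1. All 9 were found by their Entrez gene identifier among the 27179 genes of the count table, and all 9 passed the filter on low counts that left 17370 genes for testing. The gamma chain Lamc3 was added with its level.

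The libraries were made from female C57BL/6 mice carrying the Ecadherin-GFP reporter, aged 5 weeks and therefore in puberty. Terminal end buds (TEBs), the bulbous growing tips of the mammary tree, were dissected apart from the ducts behind them, and epithelial cells (Lin-CD29+CD24+) of each were sorted by GFP into luminal (high) and basal (low) cells. RNA-seq libraries represent basal cells of ducts (3 libraries), basal cells of TEBs (3), luminal cells of ducts (2, numbered 1 and 3) and luminal cells of TEBs (3). Each library is a pool of at least 2 mice, 1 further sample of luminal duct cells was left out by the authors because too few cells were sorted, and p-values measure the spread between these pools. All groups carry the reporter, and no group had a treatment.

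Library totals ran from 27989137 to 49221436 counts, and mitochondrial genes took from 4.34% to 37.5% of them, with the highest shares in basal TEB replicate 1 (37.5%) and luminal duct replicate 3 (28.5%). The sorted populations carried the markers of their labels. The 7 basal markers summed to between 5118 and 18580 CPM in basal libraries and between 12.4 and 235 CPM in luminal libraries, and the 8 luminal markers to between 265 and 541 CPM in basal and between 12966 and 21208 CPM in luminal libraries. Basal marker sums were lower in basal TEBs (5118 to 8191 CPM) than in basal ducts (15103 to 18580 CPM). CPM values are counts scaled to a common library size (cpm function of edgeR) after TMM normalization, and in bulk libraries fewer cells of a type and less RNA per cell cannot be told apart.

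Laminins are secreted as heterotrimers of 1 alpha, 1 beta and 1 gamma chain, which assemble inside the cell, and a trimer is named by its chain numbers, so that laminin-111 holds the products of Lama1, Lamb1 and Lamc1. Around the mammary duct they form a sheet under the basal, or myoepithelial, cells, where integrins and dystroglycan bind the alpha chain. Laminin-111 is known for its role in the polarity of luminal cells in culture, laminins with the Lama3 chain for anchoring epithelia through hemidesmosomes, and the alpha chains of Lama2 and Lama4 for muscle, nerve and vessel basement membranes.

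Promoter sequences are shown for Lamb3, the chain that passed the test for TEBs against ducts in both cell types, and for Lama5, the alpha chain that made up most of the luminal alpha chain signal. The RefSeq promoter table for GRCm38.p6 held 5 of the 9 chains. Each stretch covers 190 bases, from 250 to 61 bases before the start site, 5′ to 3′ on the strand of the gene, and lies outside annotated exons. Capitals mark the GC box GGGCGG on either strand. The Lamb3 stretch (chr1:193301744-193301933, plus strand) lies inside the annotated span of the gene, before its shorter transcripts, and the Lama5 stretch (chr2:180225920-180226109, minus strand) lies just before that gene.
Lamb3: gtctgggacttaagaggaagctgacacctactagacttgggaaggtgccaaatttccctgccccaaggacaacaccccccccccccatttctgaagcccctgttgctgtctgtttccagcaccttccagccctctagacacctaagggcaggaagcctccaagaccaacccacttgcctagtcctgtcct
Lama5: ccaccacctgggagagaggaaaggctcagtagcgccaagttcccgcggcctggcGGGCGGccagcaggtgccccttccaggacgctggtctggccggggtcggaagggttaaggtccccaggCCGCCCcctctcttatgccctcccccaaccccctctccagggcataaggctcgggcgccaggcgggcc
The Lama5 stretch has a GC content of 71.1% and held 2 GC boxes, starting 196 and 128 bases before the start site. The Lamb3 stretch has a GC content of 56.3% and held none. The AP-1 motif TGANTCA and the letters TATAAA were searched on both strands and matched neither stretch. The bases between each stretch and the start site were not searched, so a match there would be missed. In the same stretch of all 32851 promoters, 22.8% held a GC box, 5.22% the AP-1 motif and 8.73% the TATAAA letters. These matches describe letters only, since no binding was measured.

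Lama1, which encodes the alpha chain of laminin-111, was a basal transcript. Its level was 734, 398 and 906 CPM in the 3 basal duct libraries and 1614, 1209 and 1122 CPM in the 3 basal TEB libraries. In luminal cells it was 0.797 and 0.987 CPM in ducts and 1.43, 1.92 and 0.713 CPM in TEBs. Each basal library was therefore far above each luminal one, and every basal TEB library was above every basal duct library. Basal cells exceeded luminal cells by 9.59 log2 units in ducts (SE 0.61, FDR = 1.59e-06) and by 9.92 in TEBs (SE 0.50, FDR = 1.64e-07). For basal ducts the mean was 679 ± 259 CPM, and for basal TEBs 1315 ± 263 CPM (SD, n = 3 each). This difference of 0.95 log2 units (SE 0.34) did not pass the test (FDR = 0.233).

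Lama3, the alpha chain of the laminins at hemidesmosomes, was also basal. It reached 930.1, 646 and 898 CPM in basal ducts and 786, 591 and 549 CPM in basal TEBs. The ranges overlapped, and the difference of −0.36 log2 units (SE 0.32) did not pass the test (FDR = 0.663). In luminal cells the level was low, at 9.04 and 21.1 CPM in ducts and 2.69, 5.05 and 2.75 CPM in TEBs. Both luminal duct libraries lay above the 3 luminal TEB libraries. Lama3 fell in luminal TEBs by 2.10 log2 units (SE 0.37, FDR = 0.0220), that is 4.28-fold, on a mean of 15.1 ± 8.53 CPM (SD, n = 2) in ducts. Without luminal duct replicate 3 the difference was −1.37 (FDR = 0.119), and without luminal TEB replicate 1 or 3 the FDR was 0.0795 and 0.102.

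The luminal fall of Lama3 went with basal markers. In luminal cells all 7 basal markers had lower fitted levels in TEBs than in ducts, with a median of −3.09 log2 units. Of the 7, 6 passed the test, where 0.771% of all genes were called lower, and none of the 7 was at 0 in any library. As a share of their mean in basal cells of the same structure, basal markers stood at a median of 0.592% and 1.22% in luminal duct replicates 1 and 3. In luminal TEBs the medians were 0.300%, 0.565% and 0.227%. Lama3 stood at 1.10% and 2.56% in luminal ducts and 0.419%, 0.786% and 0.429% in luminal TEBs, inside the range of the 7 markers in each of these libraries. Lamb1 stood at 0.739% and 2.28%, then 0.641%, 0.807% and 0.487%, also inside that range. Lama1 was below the range in 4 of the 5 luminal libraries, at between 0.0542% and 0.146%. The part of basal cells or basal RNA in the luminal values of these chains was not tested.

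Lama5, the alpha chain of laminin-511 and laminin-521 and the broadly expressed epithelial form, was the alpha chain of luminal cells. It reached 1412 and 888 CPM in luminal ducts and 738, 466 and 564 CPM in luminal TEBs. Basal cells had 645, 389 and 525 CPM in ducts and 447, 396 and 275 CPM in TEBs. No library of a luminal group fell below a basal library of the same structure. In ducts Lama5 was lower in basal cells by 1.15 log2 units (−1.15, SE 0.30, FDR = 0.0174), and it was the one chain with that direction past the test. This call was lost without basal duct replicate 2 (−0.98, FDR = 0.0575) and without luminal duct replicate 1 (−0.77, FDR = 0.143). In TEBs the difference of −0.66 (SE 0.28) did not pass (FDR = 0.106). TEBs were below ducts by −0.48 in basal cells (SE 0.28, FDR = 0.452) and by −0.96 in luminal cells (SE 0.30, FDR = 0.141), and neither passed in edgeR's quasi-likelihood test. The luminal difference passed in the likelihood ratio test (FDR = 0.0499) and in DESeq2 (−1.03, FDR = 0.0177).

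Lama4, an alpha chain of vessel and nerve basement membranes, was lower than Lama1 and Lama3 in basal cells but present in every library. It was 81.6, 99.1 and 85.8 CPM in basal ducts and 110.9, 79.96 and 79.0 CPM in basal TEBs. Luminal cells had 14.4 and 28.8 CPM in ducts and 10.2, 16.7 and 7.17 CPM in TEBs. Basal libraries were above all luminal ones, by 2.04 log2 units in ducts (SE 0.39, FDR = 0.00239) and 2.99 in TEBs (SE 0.35, FDR = 5.02e-05). Between TEBs and ducts it differed by 0.02 in basal cells (SE 0.32, FDR = 1) and by −0.93 in luminal cells (SE 0.36, FDR = 0.218).

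Lama2, the alpha chain of muscle laminin, was close to undetected. It had 0.658, 1.47 and 3.77 CPM in basal ducts and 3.12, 1.83 and 6.33 CPM in basal TEBs. In luminal cells it was at a count of 0 in duct replicate 1, which allows up to 0.0683 CPM, and in TEB replicate 1, which allows up to 0.0673 CPM. The other luminal libraries had 7.28 CPM (duct replicate 3), 1.28 CPM and 0.366 CPM (TEB replicates 2 and 3). The highest value over all 11 libraries was thus in luminal duct replicate 3, whose stromal marker sums were above those of luminal duct replicate 1. No comparison of Lama2 passed the test (FDR from 0.327 to 0.873 in the 4 comparisons of groups). Of the 6 fibroblast markers all were detected in both luminal duct libraries, summing to 6.03 CPM in replicate 1 and 249.7 CPM in replicate 3, against 11.7 to 53.1 CPM in luminal TEBs, 430.2 to 839.6 CPM in basal ducts and 226 to 406 CPM in basal TEBs. The 5 endothelial markers summed to 1.02 and 26.2 CPM and the 4 pericyte markers to 0.728 and 14.6 CPM in the same luminal duct libraries. In replicate 1, Cdh5, Kdr, Emcn, Tie1, Rgs5, Pdgfrb and Cspg4 were at 0, and in replicate 3 Emcn and Cspg4 were. In luminal TEBs these sums were 1.55 to 10.4 CPM and 0.914 to 2.91 CPM, in basal ducts 10.7 to 189 CPM and 24.2 to 44.0 CPM, and in basal TEBs 3.19 to 38.3 CPM and 1.15 to 17.0 CPM. Over all 11 libraries the highest fibroblast, endothelial and pericyte sums (839.6, 189 and 44.0 CPM) were in basal duct replicate 2, which had 1.47 CPM of Lama2. The part of stromal or vascular cells in the Lama2 and Lama4 values was not tested.

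**Figure D1:**
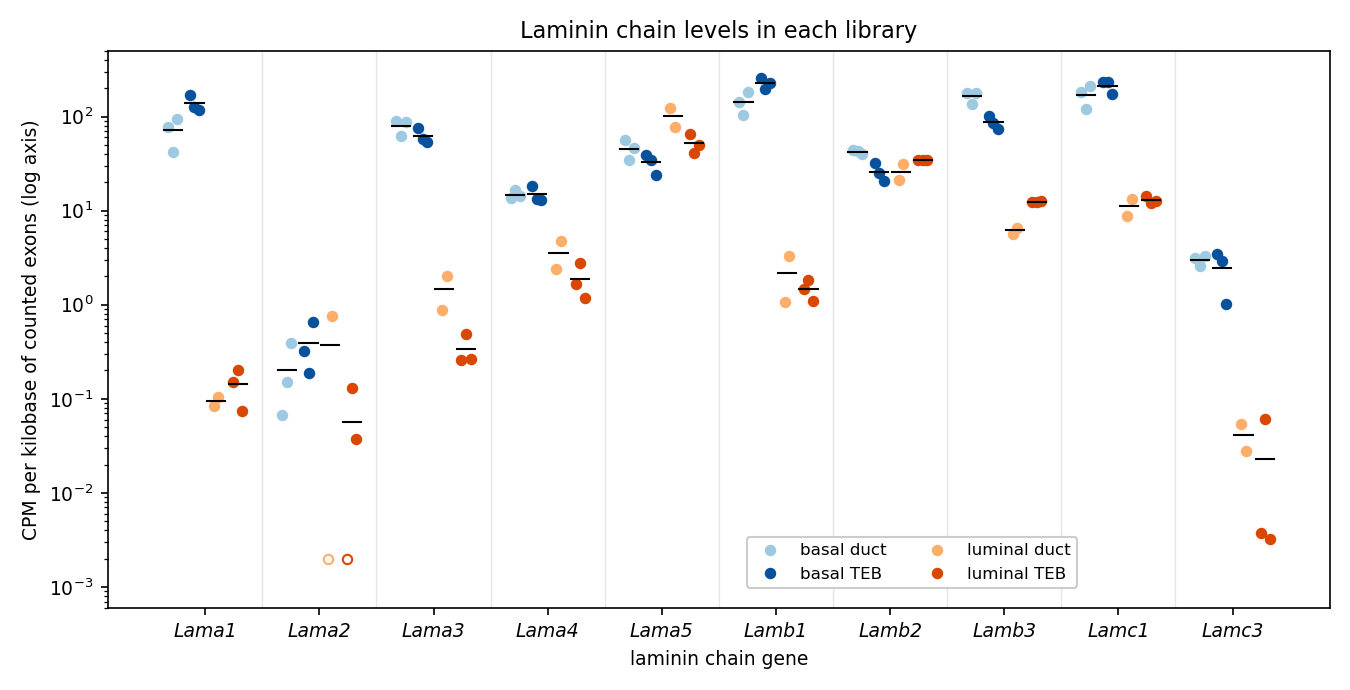
Level of the 9 laminin chains and of Lamc3 in every library, in CPM per kilobase on a log scale (vertical axis), by gene (horizontal axis) and group (colour), with 1 point per library and a black line at the group mean. Open circles at the bottom stand for the 2 counts of 0. Lama1, Lama3, Lamb1, Lamb3 and Lamc1 are far higher in the 6 basal libraries than in the 5 luminal ones, Lama5 is highest in luminal ducts, and Lama2 is low in all groups.

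The beta chains divided in the same way between the cell types, with Lamb2 as the chain common to both. Lamb1, the beta chain of laminin-111 and laminin-511, was 834, 606 and 1047 CPM in basal ducts and 1472, 1146 and 1307 CPM in basal TEBs. In luminal cells it was 6.12 and 18.9 CPM in ducts and 8.38, 10.6 and 6.38 CPM in TEBs. All basal TEB libraries were above all basal duct libraries, but the difference of 0.66 log2 units (SE 0.35) did not pass the test (FDR = 0.419). Basal cells were above luminal cells by 6.06 log2 units in ducts (SE 0.53, FDR = 1.01e-05) and 7.28 in TEBs (SE 0.47, FDR = 6.27e-07). In luminal cells the TEB and duct ranges overlapped (−0.56, SE 0.40, FDR = 0.501).

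Lamb2, the beta chain of laminin-521 and known from kidney and synaptic basement membranes, varied least between populations. It was 246, 243 and 225 CPM in basal ducts, 181, 140.5 and 116 CPM in basal TEBs, 118 and 175 CPM in luminal ducts, and 193, 194 and 196 CPM in luminal TEBs. Basal duct libraries were the highest and luminal TEB libraries the closest to each other. In ducts, basal cells were higher by 0.70 log2 units (SE 0.22, FDR = 0.0404), a call lost without any 1 of 7 libraries (the 3 basal duct libraries, luminal duct replicate 1 and the 3 luminal TEB libraries), with values from 0.45 to 0.74 and FDR from 0.0596 to 0.230. In TEBs the value was −0.42 (SE 0.19, FDR = 0.147). It passed in 4 of 23 alternatives, among them the fit without basal TEB replicate 1 (−0.60, FDR = 0.0409). TEBs differed from ducts by −0.71 in basal cells (SE 0.20, FDR = 0.119) and by 0.41 in luminal cells (SE 0.22, FDR = 0.368), without overlap in either, and neither passed.

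Lamb3, a beta chain of epithelial laminins that partners the Lama3 chain, changed in opposite directions in the 2 cell types. It was 714, 553 and 727 CPM in basal ducts and 410.96, 347 and 299 CPM in basal TEBs. It was 23.1 and 26.8 CPM in luminal ducts and 49.99, 49.7 and 50.7 CPM in luminal TEBs. Every basal duct library was above every basal TEB library, and every luminal TEB library was above both luminal duct libraries. Lamb3 fell by 0.91 log2 units in basal TEBs (SE 0.17, FDR = 0.0279), a 1.88-fold lower level. It rose by 1.01 log2 units in luminal TEBs (SE 0.20, FDR = 0.0349), a 2.01-fold higher level. The difference between these changes, basal minus luminal, was −1.92 (SE 0.27, FDR = 0.0126). Basal cells remained above luminal cells, by 4.74 log2 units in ducts (SE 0.24, FDR = 5.50e-07) and 2.81 in TEBs (SE 0.19, FDR = 7.33e-07).

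The calls for Lamb3 between TEBs and ducts were close to the threshold. In basal cells the call was lost without any 1 of 6 libraries (basal duct replicates 1 and 3, basal TEB replicate 3 and the 3 luminal TEB libraries), with log2 values from −0.95 to −0.81 and FDR from 0.0536 to 0.151. In luminal cells it was lost without any 1 of basal duct replicate 1, the 2 luminal duct libraries and the 3 luminal TEB libraries, with values from 0.91 to 1.12 and FDR from 0.0532 to 0.142. The difference between the cell types lost its call without basal duct replicate 1 or luminal TEB replicate 1 or 3, with values from −1.93 to −1.88 and FDR from 0.0504 to 0.0526. In luminal cells Lamb3 moved the other way from the basal markers. As a share of its basal mean it was 3.48% and 4.03% in luminal ducts and 14.2%, 14.1% and 14.4% in luminal TEBs. All 5 shares were above the highest basal marker of the same library, which reached at most 3.25%. The part of basal cells or basal RNA in luminal Lamb3 was not tested. In basal cells all 7 basal markers were also lower in TEBs, without overlap between the libraries (median −1.84 log2 units), and 3 of the 7 passed the test, where 1.16% of all genes were called lower. Their part in the fall of Lamb3 was not tested.

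Lamc1, the gamma chain of most laminins, had the highest or next highest level per length of the 9 chains in basal cells. It was 1399, 918 and 1597 CPM in basal ducts and 1777, 1754 and 1308.5 CPM in basal TEBs. It was 67.4 and 102 CPM in luminal ducts and 109, 91.6 and 95.8 CPM in luminal TEBs. TEB and duct ranges overlapped in both cell types, and the differences of 0.31 (SE 0.25, FDR = 0.621) in basal and 0.23 (SE 0.28, FDR = 0.721) in luminal cells did not pass. Basal cells were higher by 3.95 log2 units in ducts (SE 0.33, FDR = 7.52e-06) and 4.03 in TEBs (SE 0.28, FDR = 1.04e-06). Luminal Lamc1 stood at 5.16% to 7.80% of the basal mean, above the basal markers of the same libraries. The part of basal cells or basal RNA in these luminal values was not tested.

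The gamma chain Lamc3 stayed between 6.08 and 20.3 CPM in basal libraries and between 0.0193 and 0.362 CPM in luminal ones. Its basal libraries were thus all above its luminal ones.

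**Figure D2:**
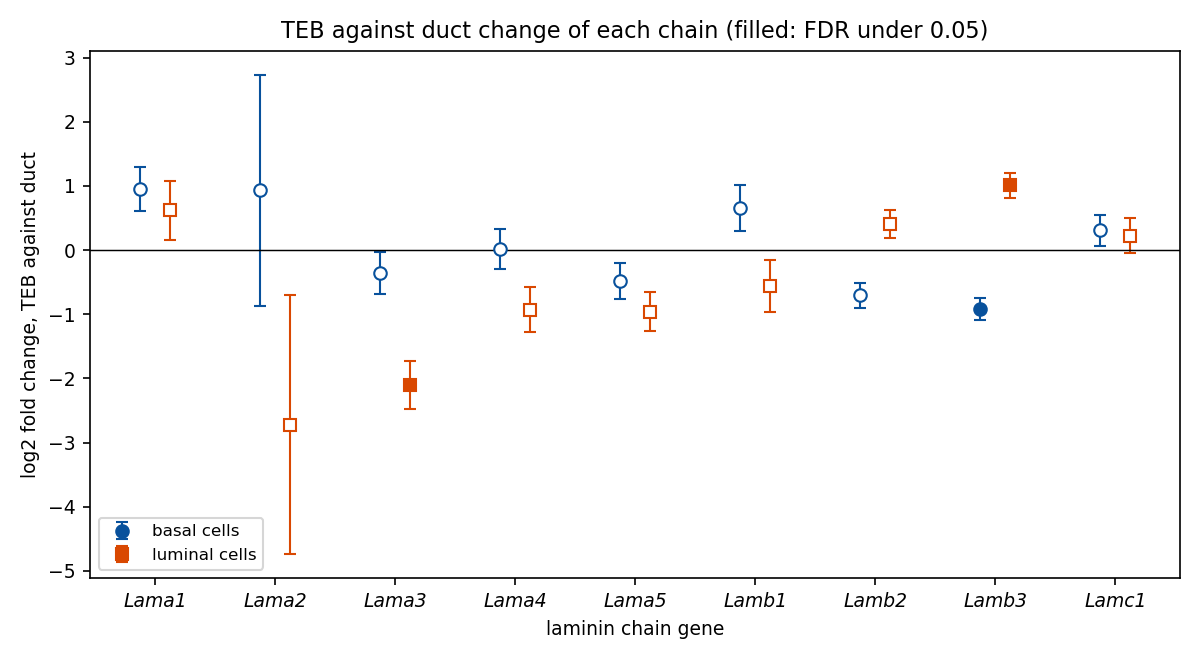
Log2 fold change of each laminin chain for TEBs against ducts (vertical axis) in basal cells (blue circles) and in luminal cells (orange squares), with bars of 1 standard error and filled symbols past an FDR of 0.05. Lamb3 is filled in both cell types, at −0.91 in basal and 1.01 in luminal cells, and Lama3 in luminal cells at −2.10.

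Counted together, 1 of the 9 chains was lower in basal TEBs than basal ducts (Lamb3) and 0 were higher, where 1.16% of all genes tested were called lower and 0.167% higher. By the unadjusted p, 3 of 9 were under 0.05, against 14.5% of all genes. The groups did not overlap for 4 of 9 (Lama1, Lamb1, Lamb2 and Lamb3), against 20.8% of all genes. In luminal cells 1 of 9 was higher in TEBs (Lamb3) and 1 lower (Lama3), where 0.639% of all genes were higher and 0.771% lower. Groups did not overlap there for 4 of 9 (Lama3, Lama5, Lamb2 and Lamb3), against 43.7% of all genes, a share near the background. The difference between the cell types was called in 1 of 9, Lamb3, on the lower side, where 0.363% of all genes were lower and 0.0806% higher. The median log2 change of the 9 was 0.02 in basal and −0.56 in luminal cells, against −0.03 and 0.04 over all genes.

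Between cell types the calls were many. In ducts 7 of 9 chains were higher in basal cells and 1, Lama5, was lower, where 12.6% of all genes were higher and 9.71% lower. In TEBs 6 of 9 were higher (Lama1, Lama3, Lama4, Lamb1, Lamb3 and Lamc1) and 0 lower, where 13.2% of all genes were higher and 11.8% lower. The median of the 9 was 3.95 log2 units in ducts and 2.99 in TEBs, against 0.08 and 0.04 over all genes. The 9 genes held 0.362% to 0.658% of all counts in basal libraries and 0.103% to 0.169% in luminal libraries. The 5 comparisons share libraries, so they are not independent of each other.

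Levels of different chains were compared per length, as CPM per kilobase of the counted gene model. A gene expressed mainly as a transcript shorter than its model would be understated, and transcript forms were not resolved. This limit also holds for the shares and trimers below. In basal ducts Lamc1 (171), Lamb3 (164) and Lamb1 (143) led, and neighbours in that order overlapped between libraries. Lama3 (79.8), Lama1 (71.4), Lama5 (45.6) and Lamb2 (42.3) followed, again with overlap between neighbours, and Lama4 (14.7), Lamc3 (3.01) and Lama2 (0.203) came last without overlap. In basal TEBs Lamb1 (226) and Lamc1 (212) led and overlapped, followed by Lama1 (138) without overlap, then by Lamb3 (86.9) and Lama3 (62.1), and Lama5 (32.7) and Lamb2 (25.9), each pair overlapping. Lama1 and Lamb1 thus stood higher in the basal TEB order, and Lamb3 lower, than in the basal duct order.

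In luminal ducts the order per length was Lama5 (101), Lamb2 (26.0), Lamc1 (11.1) and Lamb3 (6.15), without overlap. Lama4 (3.58), Lamb1 (2.16) and Lama3 (1.46) followed and overlapped, and Lama2 (0.375) and Lama1 (0.0937) overlapped at the low end. In luminal TEBs Lama5 (51.7) and Lamb2 (34.6) led without overlap, then Lamc1 (13.0) and Lamb3 (12.4) with overlap, Lama4 (1.88) and Lamb1 (1.46) with overlap, Lama3 (0.338), and Lama1 (0.143) and Lama2 (0.0564) with overlap. Luminal cells of both structures therefore had the same leading alpha and beta chains, Lama5 and Lamb2.

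As a share of the summed per-length level of its kind, the alpha chain make-up differed between basal ducts and basal TEBs. Lama1 made up 32.9% ± 6.14 (SD, n = 3) of alpha chain signal in basal ducts and 55.7% ± 0.906 in basal TEBs. Lama3 made up 38.0% ± 2.28 and 25.0% ± 0.417, and Lama5 21.6% ± 2.47 and 13.2% ± 1.71. None of these 3 shares overlapped between the structures. Shares add up to a fixed whole, so a higher share of Lama1 lowers those of the other alpha chains. In CPM, Lama3 and Lama5 overlapped between basal TEBs and basal ducts, and the difference of none of the 3 chains passed the test. In luminal cells Lama5 made up 94.2% ± 4.47 of ductal alpha signal (SD, n = 2) and 95.2% ± 2.87 of that in TEBs (SD, n = 3), ranges that overlapped.

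Beta chain shares moved likewise. In basal cells Lamb1 went from 40.6% ± 4.26 in ducts to 66.8% ± 3.33 in TEBs, and Lamb3 from 47.0% ± 1.97 to 25.6% ± 2.38 (SD, n = 3), without overlap. In luminal cells Lamb2 took most of the signal, 75.8% ± 0.175 in ducts (n = 2) and 71.4% ± 0.486 in TEBs (n = 3), and Lamb3 18.3% ± 3.12 and 25.6% ± 0.278, again without overlap. Beta shares likewise add up to a fixed whole, and neither the alpha nor the beta shares were tested.

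**Figure D3:**
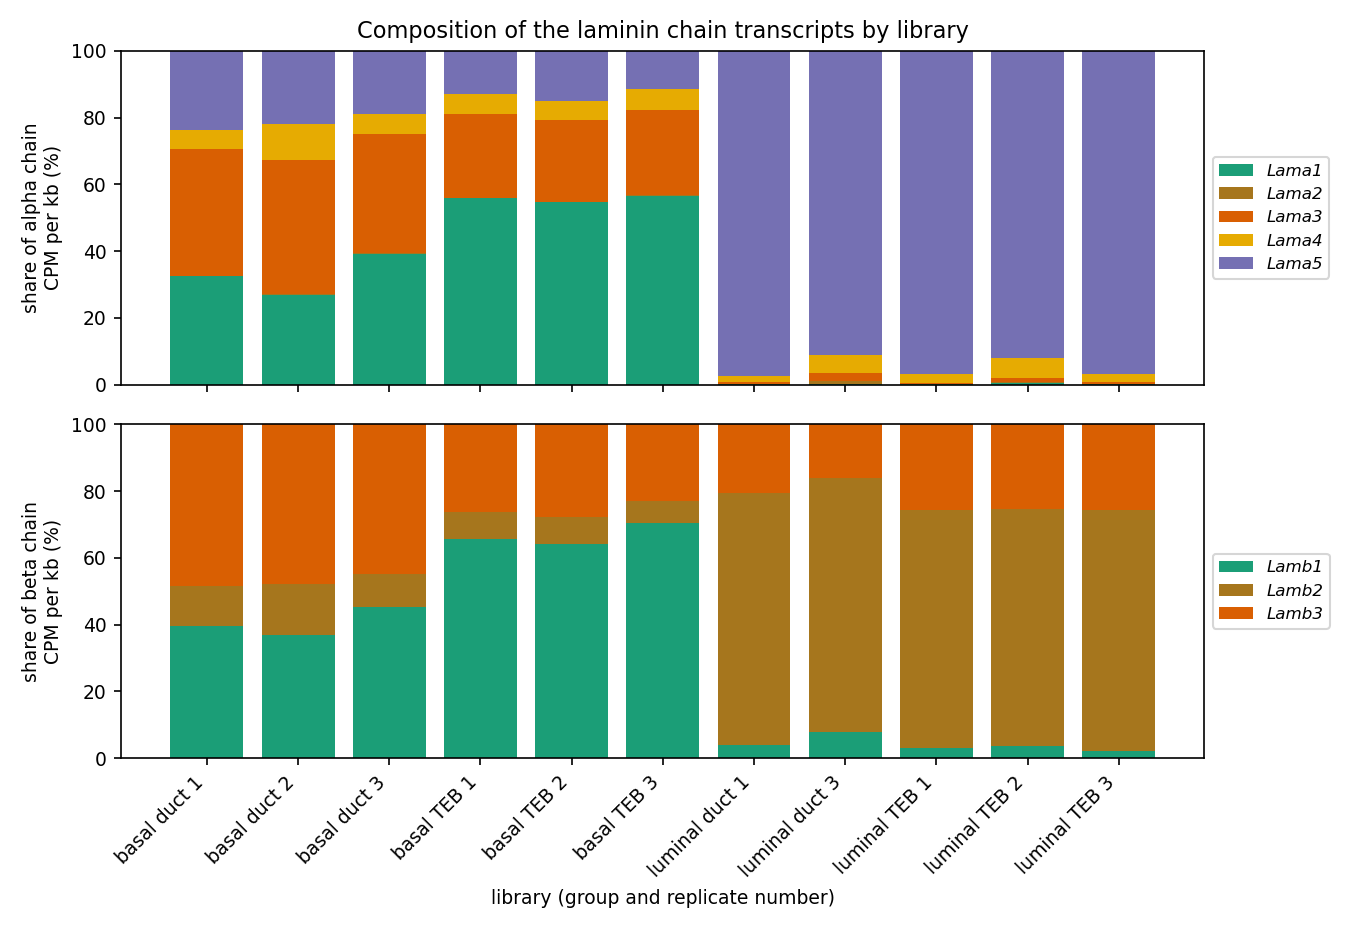
Share of each chain in the summed CPM per kilobase of its kind (vertical axis, percent), stacked for each of the 11 libraries, with alpha and beta chains in separate panels. In basal cells Lama1 and Lamb1 take larger shares in TEBs (55.7% and 66.8% on average) than in ducts (32.9% and 40.6%), and in luminal cells Lama5 and Lamb2 take most of the alpha and beta signal.

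The summed levels of alpha and of beta chains set the populations apart too. In basal cells alpha chains summed to 155 to 303 CPM per kilobase and beta chains to 284 to 400.4. In luminal ducts the alpha sums were 127 and 85.6 and the beta sums 27.7 and 40.9. In luminal TEBs the alpha sums were 44.5 to 66.9 and the beta sums 48.1 to 48.5. Alpha signal was therefore below beta signal in every basal library and above it in both luminal duct libraries.

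Which trimers the transcripts of each population could supply was described by the least abundant chain of each trimer, in CPM per kilobase, since 1 copy of each chain is needed. The trimers described hold Lamc1 as their gamma chain, and each was read alone, although trimers share chains and compete for them. None of them holds Lamb3, which stood above Lama3 per length in basal ducts (164 against 79.8) and basal TEBs (86.9 against 62.1). Lama3 used in trimers with Lamb3 was therefore not set apart from laminin-311. Transcript levels do not give protein levels, and chains made by one cell type can be secreted as trimers only after assembly inside that cell. Among these, the highest value in basal ducts was for laminin-311, at 79.8 ± 15.03 (SD, n = 3) and limited by Lama3. Laminin-111 followed at 71.4 ± 27.2, limited by Lama1, and laminin-511 at 45.6 ± 11.3, limited by Lama5. The ranges of laminin-111 (41.8 to 95.2) and laminin-311 (62.5 to 89.9) overlapped.

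In basal TEBs laminin-111 had the highest value, 138 ± 27.6 (SD, n = 3), ahead of laminin-311 at 62.1 ± 12.2 and laminin-511 at 32.7 ± 7.74. Its range of 118 to 170 was above that of laminin-311 in TEBs (53.1 to 76.0) and above its own range in ducts. With each trimer read alone, the limiting chain of these trimers was the alpha chain in both structures. They all draw on Lamc1, however, and the summed alpha signal was above Lamc1 in every basal library. Over the basal libraries the alpha sums ran from 155 to 303 and Lamc1 from 120 to 233 CPM per kilobase. Trimers with Lamb2 stood lower in basal TEBs, where laminin-121, laminin-321 and laminin-521 were each limited by Lamb2 at 25.9 ± 5.83, and trimers with Lama4 stood at 14.7 ± 1.51 in ducts and 14.9 ± 3.00 in TEBs.

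In luminal cells laminin-521 had the highest value of the trimers described, with 11.1 ± 3.19 for ducts (SD, n = 2) and 13.0 ± 1.22 for TEBs (SD, n = 3), limited by Lamc1, with overlapping ranges. Laminin-511 reached 2.16 ± 1.56 and 1.46 ± 0.362, limited by Lamb1. Laminin-311 reached 1.46 ± 0.825 in ducts and 0.338 ± 0.130 in TEBs, limited by Lama3, and laminin-111 reached 0.0937 ± 0.0141 and 0.143 ± 0.0640, limited by Lama1. All luminal values were below the basal values of the same trimer and structure, apart from the Lama2 trimers, whose group means stood between 0.0564 and 0.387. Basal and luminal libraries overlapped for these in ducts but not in TEBs. In each population, the trimer with the highest value among those described did not depend on Lama2 or Lama4.

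**Figure D4:**
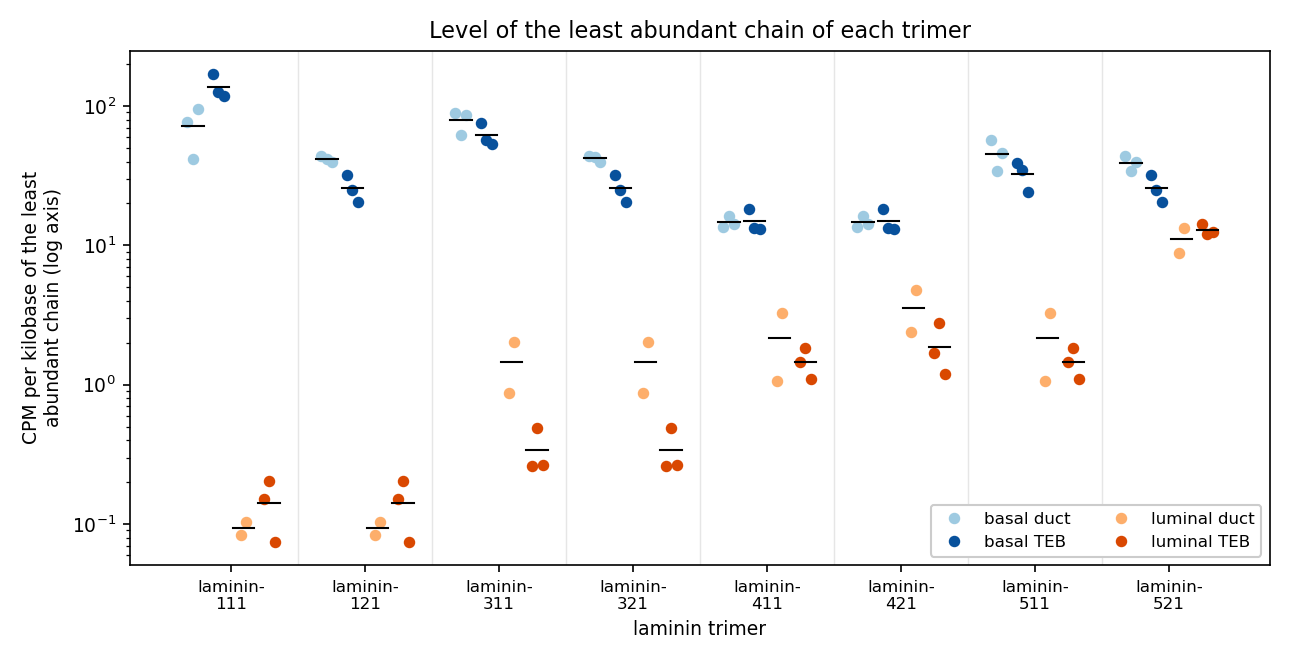
Level of the least abundant chain of 8 laminin trimers (horizontal axis), in CPM per kilobase on a log scale (vertical axis), by group (colour), with 1 point per library and a black line at the group mean. Among these 8, none of which holds Lamb3, laminin-111 is highest in basal TEBs with a mean of 138. Laminin-311 leads in basal ducts at 79.8, and laminin-521 leads in both luminal groups at 11.1 and 13.0.

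Laminin receptors were examined as a list of 15 genes, covering integrin subunits, dystroglycan, the Lutheran antigen Bcam, the tetraspanin Cd151 and syndecans. In basal cells 4 of 15 were lower in TEBs than ducts and 0 were higher (1.16% and 0.167% of all genes), with a list median of −0.17. Itgb4, the beta subunit of the hemidesmosome integrin that binds laminin, was 275, 177 and 169.8 CPM in basal ducts and 100.4, 82.2 and 81.2 CPM in basal TEBs, and fell by 1.24 log2 units (SE 0.22, FDR = 0.0213). Sdc4, a heparan sulfate syndecan, had means of 396 and 153 CPM (−1.38, SE 0.24, FDR = 0.0159). Bcam, which binds the Lama5 chain, had means of 497 and 265 CPM (−0.91, SE 0.20, FDR = 0.0483), and Cd151, a partner of laminin-binding integrins, 199.5 and 125 CPM (−0.67, SE 0.14, FDR = 0.0406). For all 4, every basal TEB library was below every basal duct library.

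Single libraries decided these calls. Leaving out basal duct replicate 1 or basal TEB replicate 3 ended all 4. Itgb4 lost its call without these 2 only (FDR 0.0666 and 0.126), and Sdc4 also without basal duct replicate 2 or basal TEB replicate 1 (FDR from 0.0610 to 0.110 over the 4 omissions). Bcam lost it without any 1 of 8 libraries, all but basal TEB replicate 1 and the 2 of luminal ducts (FDR from 0.0577 to 0.210). Cd151 lost it without any 1 of 8, all but basal TEB replicate 2 and the 2 of luminal ducts (FDR from 0.0734 to 0.172). The calls also depended on the processing. Over 23 alternatives, these omissions included, the call held in 20 for Itgb4, 18 for Sdc4, 13 for Bcam and 10 for Cd151. The number of receptors called ran from 0 with library size alone to 5 with limma voom.

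In luminal cells 1 of 15 receptors was higher in TEBs and 0 lower (0.639% and 0.771% of all genes). This was Sdc1, a syndecan of epithelia, at 63.6 and 109 CPM in luminal ducts and 270.3, 326 and 313 CPM in luminal TEBs (1.81, SE 0.34, FDR = 0.0276). Both duct libraries were below all TEB libraries, and the call was lost without basal TEB replicate 3, luminal duct replicate 1 or any 1 luminal TEB library (values from 1.47 to 1.86, FDR from 0.0506 to 0.108). Between cell types, 11 of 15 were higher in basal cells of ducts and 0 lower (12.6% and 9.71% of all genes), and 9 were higher and 3 lower in TEBs (13.2% and 11.8% of all genes).

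The receptors that differed most between the cell types in ducts were Itga1, Dag1 and Bcam. Itga1, a collagen and laminin integrin subunit, had a mean of 38.4 CPM in basal ducts and 0.0206 CPM, a single count over both libraries, in luminal ducts. Dag1, which encodes dystroglycan, was higher by 2.97 (SE 0.38, FDR = 0.000157) and Bcam by 2.92 (SE 0.25, FDR = 7.73e-06). In TEBs the highest were Itga1 at 4.03 (SE 1.05, FDR = 0.0144), Itga2 at 3.15 (SE 0.38, FDR = 6.74e-05) and Dag1 at 2.31 (SE 0.32, FDR = 0.000182). Lower in basal TEB cells were Sdc4 (−1.79, SE 0.24, FDR = 0.000143), Sdc1 (−1.20, SE 0.29, FDR = 0.00882) and Itgb4 (−0.68, SE 0.22, FDR = 0.0416). Itgb4 was thus above luminal cells in basal ducts and below them in basal TEBs. The Itga1 call in TEBs was lost without basal TEB replicate 2 or luminal TEB replicate 1 (FDR 0.0569 and 0.0640). That of Itgb4 was lost without basal TEB replicate 2 or 3 or any 1 luminal TEB library (FDR from 0.0703 to 0.123).

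Partners of laminin in the basement membrane, a list of 23 genes of collagens, nidogens, perlecan, agrin, netrins and the Fras and Frem proteins, were mostly basal. In ducts 15 of 23 were higher in basal cells and 2 lower (12.6% and 9.71% of all genes), and in TEBs 13 were higher and 2 lower (13.2% and 11.8% of all genes), with list medians of 4.58 and 3.58 log2 units. In ducts the partners with the highest fitted ratio were Nid2, Fras1 and Frem2. Nid2, a nidogen that links laminin to collagen IV, had a mean of 8.08 CPM in basal ducts and no count in either luminal duct library. Fras1 had 62.7 CPM in basal ducts and 0.0617 CPM, from 3 counts, in luminal ducts. Frem2, its partner in the same complex, had 224 and 0.281 CPM (9.64, SE 0.90, FDR = 1.51e-05). In TEBs the hemidesmosome collagen Col17a1 (9.10, SE 0.73, FDR = 2.97e-06), Frem2 (8.92, SE 0.69, FDR = 2.44e-06) and Col18a1 (8.44, SE 0.99, FDR = 5.76e-05) led.

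Ntn1 and Npnt were the partners higher in luminal cells. Ntn1, a netrin with laminin-like domains, differed by −3.81 in ducts (SE 0.44, FDR = 6.64e-05) and −1.60 in TEBs (SE 0.38, FDR = 0.00896). Npnt, nephronectin, an integrin ligand, differed by −2.73 in ducts (SE 0.81, FDR = 0.0300) and −3.04 in TEBs (SE 0.77, FDR = 0.0124). Its call in ducts was lost without basal duct replicate 1 or 2 or either luminal duct library (FDR from 0.0665 to 0.0920), and in TEBs without basal TEB replicate 3 (FDR = 0.0569).

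Between TEBs and ducts 1 of 23 partners was lower in basal TEBs (1.16% of all genes) and 0 passed in luminal cells, where 7 had an unadjusted p under 0.05 (16.6% of all genes did) and other tests and omissions called from 0 to 4. The basal one was Col4a6, a collagen IV chain of epithelial basement membranes. It was 474, 394 and 371 CPM in basal ducts and 233, 195 and 156 CPM in basal TEBs, without overlap, and fell by 1.08 log2 units (SE 0.20, FDR = 0.0261). In luminal cells it was 61.6 and 86.1 CPM in ducts and 97.2, 125 and 114 CPM in TEBs. The difference between the cell types was −1.68 (SE 0.31, FDR = 0.0383). The basal call was lost without basal duct replicate 1 or 2 or basal TEB replicate 3 (FDR from 0.0721 to 0.135), and the difference without any 1 of 7 libraries, the 3 of basal ducts, basal TEB replicate 3 and the 3 of luminal TEBs (FDR from 0.0545 to 0.114). No receptor passed for the difference between cell types in edgeR's quasi-likelihood test, where 7 of 15 had an unadjusted p under 0.05 (14.7% of all genes did) and other tests and omissions called from 0 to 6.

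The genes whose pattern was most like each chain were sought by Pearson's r of log2 CPM over the 11 libraries, which fall into a basal and a luminal cluster, so that most basal genes resemble each other. For Lama1 the 3 closest were Reln (r = 0.997), Chsy1 (0.995) and Emid1 (0.995). For Lama3 they were Tgfb1i1 (0.997), Col9a2 (0.997) and Col14a1 (0.995), and for Lama4 Enpp1 (0.988), Col9a3 (0.987) and Col17a1 (0.986). Reln encodes the secreted protein reelin, and Col17a1 encodes a collagen of hemidesmosomes.

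Among the closest to Lamb1 were Col4a1 (0.999) and Serpinh1 (0.998), and the closest were for Lamc1 Col4a1 (0.994), Reln (0.993) and Vcan (0.991), and for Lamb3 Lima1 (0.992), Map4k5 (0.991) and Nhsl1 (0.991). Col4a1 encodes the main collagen IV chain, and Serpinh1 a collagen chaperone. The chains that did not follow the basal pattern had lower values. For Lama5 the closest were Tanc2 (0.967), Slc30a9 (0.943) and BC005624 (0.935), for Lamb2 Bmp1 (0.912), Itgb4 (0.904) and Card10 (0.893), and for Lama2 Trub1 (0.896), Ninl (0.892) and Arl5a (0.875).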

How the data were processed

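RNA-seq was performed by the authors on polyA RNA with a TruSeq RNA v2 kit, which does not mark strand. Per the labels, genes were counted with featureCounts on mm10, and the study's methods name Rsubread with its inbuilt RefSeq annotation. The deposited values are raw counts per Entrez gene, not normalized. The members and lists were chosen with earlier results of these data known.

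In R 4.3.3, genes were filtered with filterByExpr of edgeR 4.0.16 (minimum count 10, minimum total 15), scaled by TMM and tested by edgeR's quasi-likelihood test in 1 model of the 4 groups, with Benjamini-Hochberg adjustment over 17370 genes. A gene was called at an FDR under 0.05. Each SE was obtained as the size of the fold change (log2) over the root of its F statistic. CPM per kilobase used the deposited gene length. The common biological coefficient of variation was 0.704, so moderate changes can be missed. Limits for counts of 0 (3 counts) cover counting error only. The code was tested on simulated data. Alternatives used limma 3.58.1 and DESeq2 1.42.0.

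All 9 chains were named, with receptors and partners past the threshold for TEBs against ducts, the 3 largest per direction between cell types, and the 3 genes most like each chain (mean log2 CPM of at least 4, prior count 2). Results of some genes are not reported here, and trimers were described with Lamc1 as their gamma chain. Gene spans and promoters are from GRCm38.p6.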

Additional observations from a re-analysis of the deposited data

Results flagged for a closer look

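Lamb3 differed between the cell types in its change from ducts to TEBs, by a test of the difference itself: −1.92 log2 units, basal minus luminal (edgeR quasi-likelihood test, FDR = 0.0126), with a fall in basal cells and a rise in luminal cells. Col4a6, the collagen IV chain among the partners, differed in the same sense by −1.68 (FDR = 0.0383).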

How the results depend on the processing

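Alternatives changed the number of chains called between TEBs and ducts. Of the 9 chains, 1 was called in basal cells (Lamb3), against 0 with library size alone, with only the groups compared and with the replicate block, 2 (with Lamb2) with the likelihood ratio test, DESeq2, voom with quality weights and without both libraries of highest mitochondrial share, 3 (with Lama1 and Lamb2) with voom, and 0 to 1 when 1 library was left out. In luminal cells 2 were called, against 3 (with Lama5) with the likelihood ratio test and DESeq2, 0 with library size alone, voom, quality weights and the replicate block, 1 with only the groups compared and without both high-mitochondrial libraries, and 0 to 2 in leave-one-out fits. For the difference between cell types 1 was called, against 3 (with Lama3 and Lamb2) with the likelihood ratio test and DESeq2, 2 with quality weights and without both libraries, and 0 to 3 in leave-one-out fits. Between cell types the counts stayed at 6 to 8 in ducts and 6 to 9 in TEBs. Lama3 and Lamb1 passed for the difference between cell types without luminal duct replicate 1 (2.23 and 1.82, FDR 0.0206 and 0.0332).

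Directions turned only for chains that passed no test there. Lama4 in basal cells (0.02) became −0.020 with DESeq2 size factors and DESeq2, −0.18 with library size alone, −0.021 at a mean CPM of at least 1, −0.035 with voom, −0.086 with quality weights, −0.029 without mitochondrial genes, −0.15 without both libraries and −0.15 to 0.10 in leave-one-out fits. Lama2 in luminal cells (−2.72) became 0.55 with quality weights, 7.64 without both libraries and −4.29 to 7.54 in leave-one-out fits. Lama2 in ducts (−0.88) became 2.62 with voom, 3.79 with quality weights, 0.031 with the replicate block, 9.46 without both libraries and −1.89 to 9.37 in leave-one-out fits. Lamb1 in luminal cells became 0.48 without both libraries and −1.16 to 0.46 in leave-one-out fits, and Lamc1 −0.039 to 0.55 in the same fits. For the difference between cell types, library size alone gave −0.27 for Lama1, −0.044 for Lama5 and −0.50 for Lamc1; Lama2 became −6.58 without both libraries and −6.60 to 5.19 in leave-one-out fits; Lamc1 became −0.17 with quality weights, −0.33 without both libraries and −0.25 to 0.35. The cause was not tested.

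Over all genes, called genes ran from 57 to 874 (230) in basal cells, 10 to 1305 (245) in luminal cells and 7 to 753 (77) for the difference. With library size alone the median of all genes was −0.16 in basal and 0.42 in luminal cells, and 1.75% of basal calls were higher against 12.6%, 37.2% against 52.8% between cell types in TEBs, and 6.67% against 18.2% for the difference. The labels do not say whether a shared replicate number marks a shared pool, and the main model holds no replicate term. To look for pairing, the log2 CPM of each library was taken as its deviation from the mean of its group. Correlations of these deviations between libraries of different groups ran from −0.0677 to 0.163 for the same number. For different numbers they ran from −0.163 to 0.137. The 2 luminal duct libraries have equal and opposite deviations, so their correlations mirror each other. In 19 of 30 comparisons the best match, among 2 or 3 libraries, was the own number, more often than an even draw would give. Every match between basal ducts and basal TEBs was of this kind. The 30 comparisons are linked, since each pair of libraries is counted from both sides. Their count therefore cannot serve as a test against an even draw. Pairing was therefore neither shown nor excluded, and with the replicate block no chain was called between TEBs and ducts. Alternatives for receptors and partners were chosen after seeing the data, and the coding-length alternative was not run. Depth limits Lama2, with 86 to 367 counts per group.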
